A study of Homo sapiens with 6 samples.

Results

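Genes of glucose use and of the response to low oxygen were followed in Hep3B cells with and without NXN knockdown. They were given as a list of 45 names, and all 45 were found among the 23406 features after Ensembl identifiers were matched to symbols. By role they comprised 5 carriers of glucose or lactate, 18 enzymes of the glycolytic chain, 5 kinases that set its flux, 3 enzymes of gluconeogenesis, 5 genes of oxygen sensing and 9 further hypoxia-inducible genes. A filter on low counts kept 39 of the 45 for testing, among 14071 features in all. Hep3B is an established epithelial line from a human hepatocellular carcinoma, labelled WT in genotype and grown in DMEM with serum under 5% CO2, and the labels name no low-oxygen treatment. Cells carried a lentiviral vector that expressed a non-targeting hairpin (shControl) or one that targets NXN (shNXN), were kept in puromycin for a week and were collected on days 7, 9 and 11. Each group therefore had 3 libraries, 1 for each day, and values in brackets or lists of 3 follow the order day 7, day 9, day 11. The study used more than one shRNA against NXN, and the labels do not say which one these libraries carried. Nothing in the labels says that the days came from separate cultures, so p-values measure the spread between these libraries only.

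Glycolysis splits glucose into pyruvate, and lactate dehydrogenase then turns pyruvate into lactate, which leaves the cell through monocarboxylate carriers. Most steps can be run by several isozymes encoded by separate genes, and adult hepatocytes use a set suited to storing and releasing glucose (SLC2A2, PKLR, FBP1 and PCK1 among them), whereas tumour cells often use the ubiquitous or muscle set. In low oxygen the prolyl hydroxylases (EGLN genes) stop marking the HIF alpha subunits for destruction, and these pair with ARNT and switch on many glycolytic genes together with VEGFA, CA9, BNIP3 and others.

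HIF binds a short core sequence, ACGTG or GCGTG, and the 250 bases before the start site of the members were searched for these letters on both strands. Of the 45 members, 38 had a promoter in the RefSeq table used (GRCh38.p14, first listed start). At least 1 match was present in 23 of the 38 (60.5%), against 43.1% of 27305 promoters of the same length. As many as 3 or more matches were present in 5 of the 38, against 5.61% of all promoters. Both core sequences contain the pair CG, of which the median promoter held 11. LDHA, ENO1 and BNIP3 held 22, 27 and 41 such pairs, and LDHB and CA9 held 9 and 5. The shares with a match were not adjusted for this. The 5 sequences below are written 5′ to 3′ in the direction of the gene, with each match in capitals, and matches that overlap, as on both strands of cacgtg, were counted as 1. LDHA and LDHB are shown because they were the highest and the second gene of 1 enzyme family here. ENO1 is shown because it was among the members that differed between the groups once days were paired. BNIP3 is shown because it held the most matches of the 38 members with a promoter, and CA9 because its group difference changed sign between days. They lie at chr11:18394313-18394562 (plus strand), chr12:21657843-21658092 (minus strand), chr1:8878687-8878936 (minus strand), chr10:131981924-131982173 (minus strand) and chr9:35673678-35673927 (plus strand).
LDHA: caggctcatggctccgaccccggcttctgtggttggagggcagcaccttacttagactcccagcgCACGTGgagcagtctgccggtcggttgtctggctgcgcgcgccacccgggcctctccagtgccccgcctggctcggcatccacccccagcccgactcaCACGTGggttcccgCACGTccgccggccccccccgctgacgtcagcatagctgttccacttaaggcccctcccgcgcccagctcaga
LDHB: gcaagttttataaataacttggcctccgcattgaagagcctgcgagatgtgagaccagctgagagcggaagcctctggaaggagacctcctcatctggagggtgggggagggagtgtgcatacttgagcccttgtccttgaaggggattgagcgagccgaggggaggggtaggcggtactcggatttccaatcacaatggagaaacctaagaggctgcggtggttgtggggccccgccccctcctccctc
ENO1: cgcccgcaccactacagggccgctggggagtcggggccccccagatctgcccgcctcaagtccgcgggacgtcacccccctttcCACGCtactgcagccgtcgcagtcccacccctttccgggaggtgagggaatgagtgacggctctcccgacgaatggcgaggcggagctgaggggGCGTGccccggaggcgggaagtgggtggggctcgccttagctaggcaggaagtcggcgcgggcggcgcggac
BNIP3: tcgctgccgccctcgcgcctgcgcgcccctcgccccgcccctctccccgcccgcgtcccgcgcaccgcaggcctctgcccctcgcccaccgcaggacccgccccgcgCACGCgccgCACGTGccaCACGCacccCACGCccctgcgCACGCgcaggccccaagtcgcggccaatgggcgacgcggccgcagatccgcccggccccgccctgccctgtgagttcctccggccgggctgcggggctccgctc
CA9: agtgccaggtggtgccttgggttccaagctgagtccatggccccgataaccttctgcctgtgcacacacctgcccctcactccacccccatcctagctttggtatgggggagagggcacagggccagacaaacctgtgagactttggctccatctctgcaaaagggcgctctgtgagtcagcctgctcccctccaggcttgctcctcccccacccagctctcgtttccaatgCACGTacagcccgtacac
LDHA held 3 matches, beginning 185, 87 and 73 bases before the start, and the LDHB window held 0. ENO1 held 2, at 166 and 72 bases, and CA9 held 1, at 18 bases. BNIP3 held 5, all between 143 and 104 bases before the start. A match is a description of the letters and says nothing of binding in these cells.

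Library totals lay between 15349382 and 16332589 estimated counts, and features assembled by the authors without a gene identifier took 1.64% to 1.97% of them. All 11 liver lineage markers were detected (ALB, AFP and APOB among them), with summed levels of 12735 to 23412 CPM (counts scaled to library size by TMM factors) in shControl and 6554 to 14859 CPM in shNXN cells. Endothelial markers were at most 0.0613 CPM in sum and fibroblast markers at most 8.76 CPM. Leukocyte markers summed to 97.0 to 162 CPM in shControl and 154 to 288 CPM in shNXN cells, nearly all of it LYZ, while CD3E was at 0 in every library and PTPRC at most 0.185 CPM, and their part in the results was not tested. NXN itself, which encodes the redox protein nucleoredoxin, stood at 181, 138 and 143 CPM in shControl and 42.7, 47.5 and 39.5 CPM in shNXN cells, without overlap. Its log2 fold change was -1.83 ± 0.16 (SE, edgeR adjusted p = 0.0378), and -1.90 to -1.67 with 1 library left out, where the call was lost without the shControl library of day 7 or 11 or the shNXN library of day 7 or 9. One property of the libraries touches every group comparison of the members. Over the 12740 tested features with a known transcript, fold change followed transcript GC content, with a Spearman's rho of 0.79 across features of the same 6 libraries, and over the 39 tested members rho was 0.64. For this reason a GC-corrected value, from a fit that removes each library's trend with GC, is given beside the main one for the members the results turn on. It turned the sign in 22 of the 39 members.

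The levels of the isozymes were compared first, as FPKM (a read density adjusted for the length of the transcript and the depth of the library), which can be set side by side between genes. Hep3B cells showed a clear choice of 1 gene at most steps, and it was the same gene in all 6 libraries. In bulk RNA, fewer cells with a transcript and less of it per cell cannot be told apart. Shares below are the gene's part of the summed FPKM of its family, as the mean over the 6 libraries (SD, n = 6).

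Of the 3 glucose carriers on the list, SLC2A1, the widespread form, stood highest, with 94.1% ± 3.95 of their sum. It stood at 19.8, 17.6 and 21.2 FPKM in shControl and 30.2, 23.5 and 20.0 FPKM in shNXN cells. SLC2A2, the carrier of adult liver, stood at 0.90, 2.38 and 1.11 FPKM in shControl and 0.82, 0.32 and 1.5 FPKM in shNXN cells, and the neuronal carrier SLC2A3 had no more than 14.2 counts in any library. Among carriers of the same family that are not on the list, SLC2A8 and SLC2A6 had a higher mean over the 6 libraries (98.8 and 27.7 FPKM) than SLC2A1 (22.1 FPKM). Among the hexokinase genes compared, which serve the first phosphorylation of glucose, a gene outside the list had the highest FPKM. Enzyme activity was not measured. HK1, the housekeeping hexokinase, had 0 to 2 counts per library. HK2, the hexokinase typical of tumours, stood at 15.0, 10.7 and 25.1 FPKM in shControl and 19.2, 18.1 and 15.6 FPKM in shNXN cells, or 21.4% ± 2.48 of the family and 28.4% by counts per annotated kilobase. The leading gene was HKDC1, a hexokinase-domain gene that is not on the list, at 58.0, 45.2 and 75.7 FPKM in shControl and 60.8, 69.8 and 66.0 FPKM in shNXN cells. HKDC1 exceeded HK2 in every library and held 78.6% ± 2.48 of the family, or 71.6% by counts per annotated kilobase.

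At the committed step, PFKL, the liver subunit of phosphofructokinase, held 92.3% ± 2.90. Its levels were 85.5, 91.1 and 70.3 FPKM in shControl and 125, 114 and 84.4 FPKM in shNXN cells. The muscle subunit PFKM followed at 5.83, 6.08 and 9.46 FPKM in shControl and 8.27, 5.53 and 6.37 FPKM in shNXN cells, and the platelet subunit PFKP at 0.41, 0.35 and 1.41 FPKM in shControl and 0.69, 0.60 and 0.58 FPKM in shNXN cells. Aldolase was almost entirely ALDOA, the muscle and ubiquitous form (99.96% ± 0.0141), at 1461, 1522 and 2431 FPKM in shControl and 2013, 1984 and 2719 FPKM in shNXN cells. ALDOC, the brain form, stayed between 0.42 and 1.28 FPKM. ENO1 held 95.6% ± 0.682 of the enolases, and the muscle enolase ENO3, which is not on the list, came second at 31.2 to 54.0 FPKM, ahead of the neuronal ENO2 at 7.19 to 18.4 FPKM. PKM outweighed PKLR, the liver and red cell pyruvate kinase, with 99.2% ± 0.489. PKM stood at 373, 427 and 582 FPKM in shControl and 483, 479 and 560.0 FPKM in shNXN cells, against 5.52, 4.51 and 1.09 FPKM in shControl and 5.12, 3.92 and 1.60 FPKM in shNXN cells for PKLR.

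At the last step 1 gene was nearly alone. LDHA, the form that favours lactate production, stood at 329, 545 and 564 FPKM in shControl and 499.6, 359 and 651 FPKM in shNXN cells. LDHB, the form of heart muscle, had 0 to 2 counts in any library, so that LDHA made up 99.98% ± 0.0211 of the family. Of the 2 lactate carriers on the list, SLC16A3 held 73.9% ± 6.01 of the sum. SLC16A3 exceeded SLC16A1 in each of the 6 libraries, at 74.6, 85.8 and 151 FPKM in shControl and 123, 132 and 155 FPKM in shNXN cells, against 25.7, 23.3 and 37.4 FPKM in shControl and 56.3, 71.8 and 47.6 FPKM in shNXN cells.

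Among the bifunctional kinases that make or remove fructose 2,6-bisphosphate, the activator of phosphofructokinase, PFKFB3 led with 75.1% ± 6.41, followed by PFKFB2 at 20.3% ± 6.62, PFKFB4 at 4.34% ± 1.18 and PFKFB1, the liver form, at 0 to 9 counts. The kinase that closes pyruvate dehydrogenase was mainly PDK2, not on the list, with 68.0% ± 9.31. PDK1, the hypoxia-inducible form, held 23.5% ± 7.91, or 8.78% by counts per kilobase. For gluconeogenesis the cytosolic PCK1 had 0 or 1 count, whereas the mitochondrial PCK2, not on the list, stood at 31.2, 39 and 21.9 FPKM in shControl and 46.7, 79.5 and 25.6 FPKM in shNXN cells. FBP1, which removes a phosphate from fructose 1,6-bisphosphate, lay between 0.11 and 2.19 FPKM. PC, which makes oxaloacetate from pyruvate, lay between 42.6 and 50.8 FPKM.

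Oxygen sensing was the exception to a single leading gene. HIF1A and EPAS1, the alpha subunits of HIF-1 and HIF-2, stood at similar FPKM, with HIF1A at 79.5, 124 and 79.6 in shControl and 82.7, 75.1 and 52.0 in shNXN cells, and EPAS1 at 55.8, 58.2 and 84.2 in shControl and 78.3, 86.1 and 82.1 in shNXN cells. HIF1A held 51.3% ± 9.91 and EPAS1 47.4% ± 10.3, and the order turned by counts per annotated kilobase, where HIF1A held 39.2% and EPAS1 60.5%. Their order in Hep3B cells therefore depends on the length used, and by FPKM it also differed between libraries. HIF1A was the higher on days 7 and 9 in shControl and on day 7 in shNXN cells, and EPAS1 in the other libraries. EGLN2, a prolyl hydroxylase not on the list, led its family with 78.1% ± 8.51. EGLN1, the main hydroxylase of HIF in most cells, stood at 26.4, 21.5 and 34.9 FPKM in shControl and 12.1, 12.6 and 17.4 FPKM in shNXN cells, and EGLN3 at 4.68, 5.75 and 4.73 FPKM in shControl and 3.36, 2.88 and 3.42 FPKM in shNXN cells. Both were lower in every shNXN library than in every shControl library on this scale, whereas in CPM the groups overlapped.

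The 6 members too low to test were HK1, LDHB, PCK1, EPO, PFKFB1 and SLC2A3. EPO, the hormone gene for which Hep3B is a classical hypoxia model, had 1, 2 and 0 counts in shControl and 5, 2 and 3 counts in shNXN libraries. PFKFB1 had 1, 3 and 0 counts in shControl and 8, 9 and 5 counts in shNXN libraries, higher on each day but near the limit of counting. For the genes with 0 counts in a library, the total allows up to 3 counts there. Whether reads of these genes were assigned to the assembled loci was not tested, since the tables give no positions.

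NXN knockdown was then compared with control. No member of the 39 had an adjusted p under 0.05 in edgeR, while 477 of all 14071 features did (3.39%). At an unadjusted p under 0.05 there were 5 members (BNIP3L, ENO1, GPI, HIF1A and TPI1), or 12.8%, against 32.9% of all features. Days were shared between the groups, and same-day libraries deviated together, so the fit with the day as a block is given beside this count. In the fit with the block, 6 members passed, ENO1, GPI and TPI1 with higher and HIF1A, BNIP3L and PFKFB2 with lower values in shNXN cells, or 15.4% of the members against 23.3% of all features. DESeq2 without the block called 5 members, the same as the unadjusted list, against 23.5% of features. Without the shNXN library of day 11, 4 members passed in edgeR (HIF1A, LDHA and PFKFB2 lower, VEGFA higher), or 10.3% against 25.8% of features. After GC correction none passed, against 0.0355% of features without the block and 0.924% with it. In these fits the members' share lay at or under that of the other features, and the median log2 fold change of the members was 0.13 against 0.025 for all features, or -0.038 against -0.0004 after GC correction.

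The direction of the members followed their GC content. Of the 11 tested members with a transcript GC content under 45%, 10 had a negative log2 fold change, with a median of -0.58, and PGK1 was the exception. Of the 28 members at or above 45%, 24 had a positive one, with a median of 0.26. Among all features the negative shares were 91.6% and 22.1% on the same sides. The cause of the trend was not tested.

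**Figure D1:**
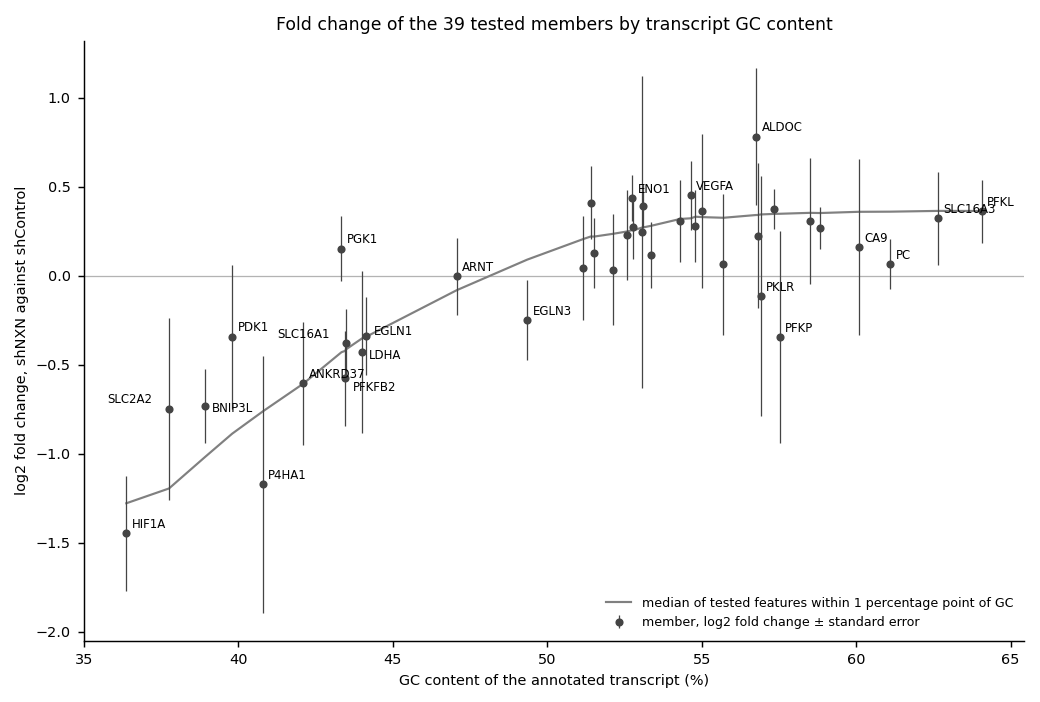
Log2 fold change of the 39 tested members (points, with the standard error from edgeR, 3 libraries a group) against the GC content of the annotated transcript in percent. The grey line joins the median log2 fold change of all tested features within 1 percentage point of each member. HIF1A, P4HA1 and BNIP3L lie at the low end of both axes, and ENO1 and VEGFA lie above zero among transcripts of higher GC content.

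Most glycolytic enzymes had a positive fold change in shNXN cells. Of the 16 tested, 13 had a positive log2 fold change, with a median of 0.27, which became -0.017 after GC correction. All 18 made up 0.822, 0.895 and 1.03% of the counts in shControl and 1.06, 1.09 and 1.17% in shNXN libraries, so the shNXN share was higher on each day. Both groups had more on each later day by counts, but by FPKM the shNXN share was 1.17, 1.15 and 1.42%, lowest on day 9. The groups did not overlap in 5 of the 16 tested enzymes, all higher in shNXN cells (ALDOC, ENO1, GAPDH, GPI and TPI1). No other tested member was separated in this direction, so the share was 12.8% of the 39 members, against 19.0% of all features. ENO1, the main enolase (chr1:8861000-8879250 in GENCODE 29, GRCh38), stood at 1456, 1469 and 1731 CPM in shControl and 1923, 2137 and 2229 CPM in shNXN cells. Each shNXN library exceeded each shControl library, with a log2 fold change of 0.43 ± 0.13 (SE, edgeR adjusted p = 0.0822, 0.0339 with the block). GC correction left 0.17 (edgeR adjusted p = 0.635), and other features of its GC content (52.7%) had a median of 0.26.

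GPI, which turns glucose 6-phosphate into fructose 6-phosphate (chr19:34359480-34402413), stood at 402, 393 and 351 CPM in shControl and 488, 545 and 471 CPM in shNXN cells. Its log2 fold change was 0.39 ± 0.12 (SE, edgeR adjusted p = 0.0895, 0.0427 with the block). TPI1, triosephosphate isomerase (chr12:6867119-6870948), stood at 455, 493 and 514 CPM in shControl and 632, 650.1 and 615 CPM in shNXN cells, a log2 fold change of 0.38 ± 0.11 (SE, edgeR adjusted p = 0.0825, 0.0469 with the block). Both enzymes were higher in shNXN cells on every day, features of like GC content had medians of 0.27 and 0.35, and GC correction left 0.12 and 0.038 (edgeR adjusted p = 0.67 and 0.93). GAPDH, often used as a reference gene, stood at 2488, 2817 and 2408 CPM in shControl and 2959, 3253 and 3075 CPM in shNXN cells, with a log2 fold change of 0.27 (edgeR adjusted p = 0.167). It was higher on each day, and after GC correction its value was -0.077. ALDOC had the largest positive log2 fold change of the members, 0.78 ± 0.39 (SE, edgeR adjusted p = 0.198), but rested on 14, 10 and 12 counts in shControl and 29, 15 and 19 counts in shNXN libraries.

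LDHA (chr11:18394388-18408425) had a negative value, unlike the enzymes above, though not past the test. It stood at 402, 532 and 757 CPM in shControl and 321, 210.2 and 726 CPM in shNXN cells, a log2 fold change of -0.43 ± 0.46 (SE, edgeR adjusted p = 0.523). Without the shNXN library of day 11 it was -1.09 (edgeR adjusted p = 0.0412), but -0.11 without the shNXN library of day 9 (edgeR adjusted p = 0.901) and -0.12 without the shControl library of day 11 (edgeR adjusted p = 0.879). The difference was largest on day 9 (-0.33, -1.34 and -0.061 on days 7, 9 and 11), and on the log2(FPKM + 1) scale the change was 0.069. PGK1, the first ATP-forming enzyme of the chain, had a log2 fold change of 0.15 ± 0.18 (SE), where features of like GC content had a median of -0.43, and 0.65 after GC correction (edgeR adjusted p = 0.103). Its levels of 322, 383 and 459 CPM in shControl and 424, 364 and 504 CPM in shNXN cells overlapped. PKM, PFKL, PGAM1 and ALDOA had log2 fold changes of 0.12, 0.36, 0.27 and 0.31, none past the test, and -0.16, -0.04, 0.0046 and 0.011 after GC correction. The remaining tested enzymes HK2, PFKM, PFKP, ENO2 and PKLR had 0.044, 0.13, -0.35, 0.36 and -0.11, with standard errors between 0.20 and 0.67.

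Of the carriers, SLC16A3 was higher on each day (log2 differences 0.44, 0.47 and 0.15) and SLC16A1 lower on each day (-0.45, -0.048 and -0.57), with adjusted p of 0.404 and 0.203 from edgeR. Their log2 fold changes of 0.32 and -0.38 became -0.085 and 0.12 after GC correction. For SLC2A2 the log2 fold change was -0.75 ± 0.51 (SE) on 15 to 86 counts and 0.29 after GC correction. SLC2A1 had a log2 fold change of 0.28 ± 0.20 (SE, edgeR adjusted p = 0.349), and -0.034 after GC correction. Among the flux kinases, PFKFB2, the heart form (chr1:207034366-207081024), stood at 56.1, 63.6 and 81.8 CPM in shControl and 38.8, 34.0 and 62.3 CPM in shNXN cells. It was lower on each day, with a log2 fold change of -0.58 ± 0.27 (SE, edgeR adjusted p = 0.178, 0.0417 with the block), and -0.12 after GC correction. Without the shNXN library of day 11 it was -0.88 (edgeR adjusted p = 0.0225), but -0.36 without the shControl library of day 11 (edgeR adjusted p = 0.368) and -0.41 without the shNXN library of day 9 (edgeR adjusted p = 0.441). PFKFB3, PFKFB4 and PDK1 had 0.064, 0.23 and -0.34 (SE 0.40, 0.41 and 0.41), with days of either sign in each, and -0.27, -0.12 and 0.58 after GC correction. The gluconeogenic genes FBP1 and PC had log2 fold changes of 0.25 and 0.066 (standard errors 0.88 and 0.14), and -0.024 and -0.30 after GC correction.

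HIF1A showed the largest fold change of any member. The gene lies at chr14:61695513-61748259, and its level was 226, 256 and 251 CPM in shControl and 65.5, 61.8 and 141 CPM in shNXN cells. Every shNXN library lay under every shControl library, with day 11 nearest to the controls, and among all features 21.5% were separated in this direction, against 2 of the 39 members (HIF1A and BNIP3L). The log2 fold change was -1.45 ± 0.32 (SE, edgeR adjusted p = 0.055), or -1.56 with the block (edgeR adjusted p = 0.0217). HIF1A has a GC content of 36.4%, the lowest of the tested members, and features of like GC content had a median of -1.28. After GC correction its log2 fold change was -0.24 (edgeR adjusted p = 0.62), and with the block and GC correction -0.22 (edgeR adjusted p = 0.519). Without the shNXN library of day 11 it was -1.94 uncorrected (edgeR adjusted p = 0.000959), and without any other single library -1.49 to -1.24 (edgeR adjusted p = 0.0779 to 0.229). On the log2(FPKM + 1) scale it was -0.42, where the median of all features was 0.13.

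EPAS1 stood at 263, 197 and 397 CPM in shControl and 307, 320.3 and 376 CPM in shNXN cells, a log2 fold change of 0.23 ± 0.25 (SE, edgeR adjusted p = 0.542). The levels overlapped, and the GC-corrected change was -0.038. ARNT, the shared partner of both alpha subunits, stood at 55.1, 65.9 and 60.4 CPM in shControl and 53.1, 48.5 and 79.3 CPM in shNXN cells, with a log2 fold change of -0.0043 ± 0.21 (SE). EGLN1 stood at 131, 76.7 and 122 CPM in shControl and 80.1, 84.5 and 96.3 CPM in shNXN cells, a log2 fold change of -0.34 ± 0.22 (SE, edgeR adjusted p = 0.298), which became 0.061 after GC correction. EGLN3 stood at 9.64, 7.32 and 9.39 CPM in shControl and 7.97, 6.56 and 7.60 CPM in shNXN cells, slightly lower on each day, with a log2 fold change of -0.25 ± 0.23 (SE). Features of like GC content had a median of 0.09, and after GC correction EGLN3 was at -0.36 (edgeR adjusted p = 0.464).

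The hypoxia-inducible members had values in both directions. Of the 8 tested, 5 had positive and 3 negative log2 fold changes, and 4 kept 1 direction on all days. VEGFA, the angiogenic growth factor, stood at 283, 288 and 283 CPM in shControl and 476, 409.8 and 283 CPM in shNXN cells, so that the shNXN libraries of days 7 and 9 were higher and that of day 11 lay among the controls. Its log2 fold change was 0.45 ± 0.19 (SE, edgeR adjusted p = 0.154), and 0.64 without the shNXN library of day 11 (edgeR adjusted p = 0.0145). It was 0.29 without the shNXN library of day 7 (edgeR adjusted p = 0.422) and 0.13 after GC correction (edgeR adjusted p = 0.773). The mitophagy receptors BNIP3 and BNIP3L, close relatives, had values of opposite sign. BNIP3 stood at 48.0, 51.6 and 40.5 CPM in shControl and 76.7, 61.0 and 48.5 CPM in shNXN cells, higher on each day, a log2 fold change of 0.41 ± 0.21 (SE, edgeR adjusted p = 0.203). BNIP3L stood at 32.1, 30.9 and 36.9 CPM in shControl and 24.3, 15.8 and 19.9 CPM in shNXN cells without overlap, a log2 fold change of -0.73 ± 0.21 (SE, edgeR adjusted p = 0.077, 0.0379 with the block). The transcripts differ in GC content, 51.4% for BNIP3 and 38.9% for BNIP3L, and after GC correction the BNIP3L value turned to 0.36 (edgeR adjusted p = 0.506) while that of BNIP3 was 0.20.

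P4HA1, a collagen prolyl hydroxylase, stood at 17.0, 24.8 and 44.4 CPM in shControl and 11.1, 2.57 and 24.6 CPM in shNXN cells, lower on each day, with a log2 fold change of -1.17 ± 0.72 (SE, edgeR adjusted p = 0.283). This ran from -2.07 without the shNXN library of day 11 to -0.68 without the shControl library of day 11, and was -0.49 after GC correction. The shNXN library of day 9 was the lowest of the 6. CA9, the carbonic anhydrase used as a marker of hypoxia, stood at 25.5, 43.1 and 48.1 CPM in shControl and 69.1, 16.2 and 45.1 CPM in shNXN cells, highest and lowest in the shNXN libraries of days 7 and 9. NDRG1, a stress-response gene, followed the same days, with 286, 349 and 269 CPM in shControl and 477, 217 and 230.4 CPM in shNXN cells. ADM, which encodes adrenomedullin, and ANKRD37 had log2 fold changes of 0.31 and -0.60, neither past the test (edgeR adjusted p = 0.558 and 0.252), and -0.065 and 0.071 after GC correction. The ANKRD37 value rested on 17 to 44 counts per library.

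Within days, the members' median log2 difference went from 0.28 on day 7 to 0.21 on day 9 and 0.0078 on day 11, with 27, 23 and 21 of 39 higher in shNXN cells. Over all features the medians were 0.00027, -0.0034 and 0.064, and 50.01%, 49.75% and 54.64% were higher in shNXN cells. In the fit without day pairing, leaving out the shControl library of day 11 gave a members' median log2 fold change of 0.35 in place of 0.13. The median of all features was then 0.070 in place of 0.025. Without the shNXN library of day 11 the members' median was 0.13. Whether either library accounts for the within-day values was not tested. A single direction on all days was seen in 23 of 39 members and in 68.4% of all features.

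**Figure D2:**
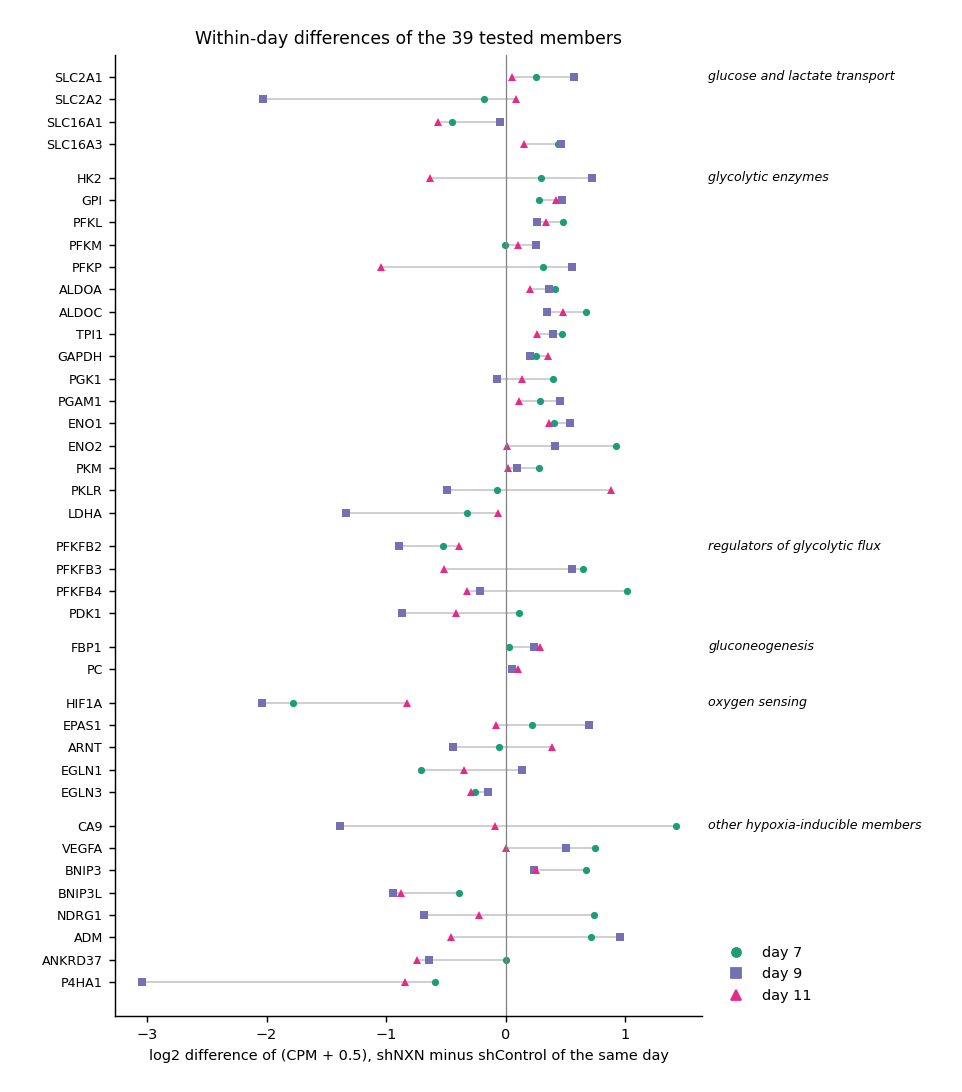
Log2 difference between the shNXN and the shControl library of the same day, computed on CPM + 0.5, for the 39 tested members grouped by role. Circles are day 7, squares day 9 and triangles day 11, with 1 library per group and day and no error. GPI, TPI1, ENO1 and GAPDH stay right of zero on all days, HIF1A and P4HA1 left of it, and CA9, PFKP and NDRG1 cross it.

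Days 7, 9 and 11 were compared over both groups, with group as a covariate, so that the other group stood as the replicate of each day. By edgeR no member and 0% of all features had an adjusted p under 0.05. At an unadjusted p under 0.05 there were 12 members (30.8%) against 21.4% of features, and DESeq2's likelihood ratio test called 6 members (ALDOA, ENO2, LDHA, PDK1, PKLR and SLC16A3), or 15.4%, against 9.79% of features. In edgeR 3 members passed without the shControl library of day 11 (HIF1A, LDHA and VEGFA, against 11.1% of features) and 3 others without the shNXN library of that day (ENO2, PFKFB3 and PKLR, against 3.80%). The liver form of pyruvate kinase and the gluconeogenic FBP1 were lowest on day 11. PKLR stood at 10.6, 10.1 and 1.66 CPM in shControl and 10.1, 7.05 and 3.48 CPM in shNXN cells, a log2 fold change from day 7 to day 11 of -2.02 (edgeR adjusted p = 0.157, 0.00395 from DESeq2). FBP1 had 19, 25 and 2 counts in shControl and 21, 31 and 4 counts in shNXN libraries and the smallest p of the members (unadjusted p = 0.00343, edgeR adjusted p = 0.138), at levels too low for an adjusted p from DESeq2.

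Of the 5 members with the smallest p in this test, ALDOA, SLC16A3 and ENO2 were highest on day 11 in both groups. ALDOA stood at 1329, 1406 and 2149 CPM in shControl and 1769.8, 1802 and 2473 CPM in shNXN cells, a log2 fold change from day 7 to day 11 of 0.59 (edgeR adjusted p = 0.144, 0.0347 from DESeq2). SLC16A3 stood at 119, 128 and 213 CPM in shControl and 161, 178 and 237 CPM in shNXN cells, with 0.70 (edgeR adjusted p = 0.144, 0.028 from DESeq2). ENO2, the neuronal enolase, stood at 13.8, 13.0 and 34.2 CPM in shControl and 26.6, 17.5 and 34.4 CPM in shNXN cells, with 0.83 (edgeR adjusted p = 0.163, 0.0192 from DESeq2). These genes ran opposite to PKLR and FBP1 from day 7 to day 11, in both groups. In PFKFB3 the days did not follow the same order in the groups, which was not tested, with 92.6, 97.6 and 258 CPM in shControl, where day 11 stood apart, and 145, 143 and 180.4 CPM in shNXN cells. Library, culture and day cannot be told apart, since each day has 1 library per group.

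**Figure D3:**
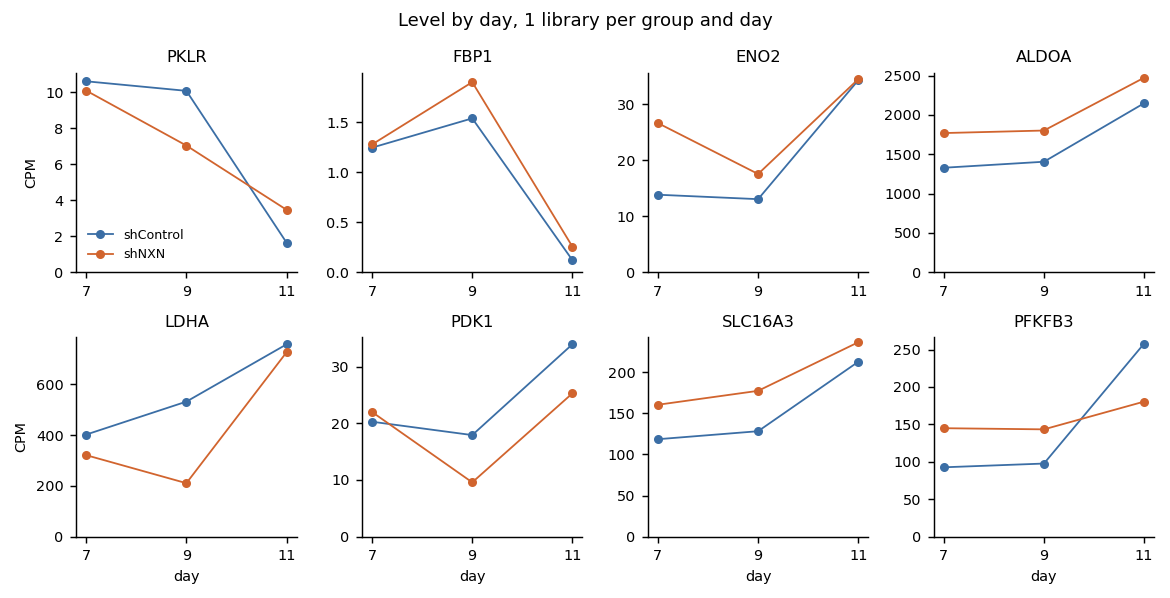
CPM of 8 members on days 7, 9 and 11 in shControl (blue) and shNXN (orange) cells, with 1 library per point and a linear axis from 0. PKLR and FBP1 are lowest on day 11 in both groups, ALDOA, SLC16A3, ENO2 and LDHA are highest there, and PFKFB3 is highest in the shControl library of day 11.

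Both tables give the same features, so a count divided by its FPKM gives the transcript length that the authors' FPKM implies, taking the sum of counts as the library's depth. It could be computed for 32 members and 10639 features with at least 50 counts and 1 FPKM in every library. A shorter implied length means that fewer counts were turned into the same FPKM, and the length should not differ between libraries if a gene has 1 fixed length. In some members it hardly did, for instance 904, 921 and 882 nucleotides in shControl and 903, 922 and 878 nucleotides in shNXN libraries for ALDOA. In others it varied within a group as well. In shControl libraries it was 4683, 3373 and 4706 nucleotides for EPAS1 and 2320, 1748 and 2114 nucleotides for SLC2A1. For HIF1A it was 2829.7, 2055 and 3148 nucleotides in shControl and 815, 835 and 2618 nucleotides in shNXN libraries, so the shNXN libraries of days 7 and 9 stood far under the rest. SLC16A1 had 2686, 2172 and 2124 nucleotides in shControl and 927, 695 and 1085 nucleotides in shNXN libraries without overlap, and its FPKM was higher in every shNXN library while its CPM was lower on each day. Shorter without overlap were 4 members (SLC16A1, ARNT, PFKFB2 and NDRG1), or 12.5% of the 32, against 18.3% of features. Longer without overlap were EGLN1 and EGLN3, against 3.77% of features. EGLN1 had 4939, 3548 and 3503 nucleotides in shControl and 6809.8, 6805 and 5346 nucleotides in shNXN libraries, and EGLN3 had 2046, 1269 and 1981 nucleotides in shControl and 2437, 2312 and 2146 in shNXN libraries. The group difference of both in FPKM exceeded that in CPM by this difference in length. The median log2 difference in implied length was -0.031 over the members and -0.043 over all features, or -0.19 over features under 45% GC and -0.019 over those at or above 55%.

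Other genes of the same pathways were taken from 4 written lists. Of 42 tested further genes of glycolysis and gluconeogenesis, 0 passed in edgeR (10 at an unadjusted p under 0.05, and 4 higher and 3 lower in DESeq2), and with the block 5 were higher and 4 lower, or 9 of 42 where 23.3% of all features passed. The higher ones included PCK2, with 52.6, 72.4 and 32.8 CPM in shControl and 86.2, 144 and 50.7 CPM in shNXN cells (log2 fold change 0.78, edgeR adjusted p = 0.0214 with the block), and the lower ones DLD, the shared subunit of pyruvate dehydrogenase (log2 fold change -1.57, edgeR adjusted p = 0.0355 with the block). Neither passed with the block and GC correction together, where the values were 0.41 and -0.55 (edgeR adjusted p = 0.15 and 0.273). Of 22 genes of the pentose phosphate path and glycogen, 0 passed (5 at an unadjusted p under 0.05, and 2 higher and 3 lower in DESeq2), and with the block 2 were higher and 2 lower. The 2 higher ones were TKT and TALDO1, which are enzymes of the pentose phosphate path. Of 16 further oxygen-sensing factors 0 passed (5 at an unadjusted p under 0.05, and 2 higher and 3 lower in DESeq2), and with the block HIF1AN was higher and ELOC, CUL2 and SIAH1 were lower.

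Of 52 further hypoxia-inducible genes, 2 were lower and 0 higher, against 3.39% of all features, or 8 lower and 4 higher with the block, against 23.3%. With the block the counts of the 4 lists lay near this share. PLOD2, a collagen lysyl hydroxylase, stood at 98.0, 94.3 and 96.9 CPM in shControl and 34.2, 18.6 and 45.9 CPM in shNXN cells (log2 fold change -1.55, SE 0.31, edgeR adjusted p = 0.0492). INSIG2, which holds back sterol synthesis, stood at 58.1, 54.2 and 63.0 CPM in shControl and 11.0, 6.68 and 23.2 CPM in shNXN cells (log2 fold change -2.10, SE 0.43, edgeR adjusted p = 0.0496). Neither passed after GC correction, where the values were -0.14 and -0.83 (edgeR adjusted p = 0.848 and 0.154). Over the 4 lists, PLOD2 and INSIG2 included, 0 genes passed in the 5 fits that left out a library other than that of shNXN on day 11. In the fit without that library 27 passed. The 4 higher ones with the block were STC2, CA12, IGFBP1 and IGFBP3. With the block and GC correction together, 1 gene of all 4 lists passed, where 0.924% of all features did. This was LOX, a lysyl oxidase that crosslinks collagen (log2 fold change 1.48, edgeR adjusted p = 0.0432), against 0.54 without either. LOX stood at 48.7, 37.2 and 38.5 CPM in shControl and 84.5, 43.7 and 53.0 CPM in shNXN cells, so the groups overlapped. The median log2 fold changes of the 4 lists, in the order given, were -0.10, -0.018, 0.079 and 0.16, beside 0.025 over all features.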

How the data were processed

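RNA of 6 Hep3B libraries (SMARTER mRNA-Seq kit) had been quantified by the authors, who deposited an estimated count and an FPKM value per feature. The deposited estimated counts were rounded before testing, and the deposited FPKM values were used for levels between genes. Aligner, counter and annotation are not given in the sources used here; the submitters' processing notes name the mouse builds GRCm38 and mm10, although the features carry human Ensembl identifiers. Estimated counts can be split between close copies, so values of paralogues are uncertain. There were 0 columns without a sample.

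Counts were tested with edgeR 4.0.16 (R 4.3.3; TMM, filterByExpr, quasi-likelihood test, Benjamini-Hochberg over all 14071 features). DESeq2 1.42.0 and limma 3.58.1, on log2(FPKM + 1) and log2(FPKM + 0.1), were alternatives, as were other scalings, no filter, the day as a block, GC correction (natural spline, 5 degrees of freedom, longest GENCODE 29 transcript) and each library left out. The standard error is the absolute log2 fold change divided by the root of F. The tests were tested on simulated data. Same-day libraries of the groups deviated together (correlations 0.36, 0.34 and 0.48, other pairs -0.40 to 0.16), and the labels give the days. No pair of replicates of a group agreed within sampling noise (chi-square per gene 21.1 to 82.9).

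The members and lists were chosen with earlier results of these data known. Described in every library were NXN, the leading isozymes, the oxygen-sensing members, the 5 largest rises and falls at 1 CPM or more with the same direction each day, the 5 members with the smallest day p, and list genes with an adjusted p under 0.05. Some genes of the families and lists are not reported here and entered no share or count of a list. Intervals and limits for 0 counts cover counting error only. Python 3.11.15 (pandas 2.3.3, numpy 2.4.6, scipy 1.17.1) was used for the summaries.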

Additional observations from a re-analysis of the deposited data

Results flagged for a closer look

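In 5 members the groups differed in opposite directions on separate days, by at least 0.5 on the log2 scale each way. With a single library for each group on a day, this difference was not tested. The share of all features that did so at this limit was not counted, so the 5 are not read as particular to the members. A single direction on all days was seen in 23 of 39 members and in 68.4% of all features.

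HK2, the inducible hexokinase, had a log2 difference of 0.72 on day 9 and -0.63 on day 11, with 83.3, 58.9 and 137 CPM in shControl and 102, 97.6 and 88.4 CPM in shNXN cells. PFKP, the platelet phosphofructokinase, had 0.55 on day 9 and -1.04 on day 11, on 11 to 54 counts per library. PFKFB3 had 0.64 on day 7 and -0.51 on day 11. In these 3 the shControl library of day 11 was the highest of the 6.

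CA9 had 1.42 on day 7 and -1.39 on day 9, and NDRG1 had 0.74 on day 7 and -0.68 on day 9. In both the shNXN library of day 7 was the highest of the 6 and that of day 9 the lowest.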

How the results depend on the processing

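The number of members past the threshold between the groups was 0 as reported, 5 with DESeq2, 6 with the replicate block, and 1 with RLE factors, with library size only and without a filter. Leaving out 1 library gave 0 to 4, the 4 without the shNXN library of day 11. Across days it was 0 as reported, 6 with DESeq2, and 0 to 3 with 1 library left out, the 3 without either library of day 11. For the other genes of the pathways it was 2 as reported, 29 with DESeq2, 29 with the replicate block, 1 with the replicate block together with GC correction, 4 with library size only, 5 without a filter, 1 with limma on log2(FPKM + 1), 0 with GC correction alone, 0 with limma on log2(FPKM + 0.1), and between 0 and 27 in the fits on 5 libraries, the 27 without the shNXN library of day 11. The log2 fold change of NXN ran from -1.90 to -1.67 with 1 library left out, and the adjusted p rose above 0.05 without the shControl library of day 7 or 11 or the shNXN library of day 7 or 9 (edgeR adjusted p = 0.0633 to 0.225). The replicate block kept the call of NXN (-1.82, edgeR adjusted p = 0.0142) and changed that of no tested member beyond the 6.

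By counts per kilobase the shares were 71.6% for HKDC1, 99.93% for ALDOA, 96.3% for ENO1, 82.7% for PDK2 and 39.2% for HIF1A. In total, 13 of the 40 shares moved by more than 1 SD, among them HK2 (28.4%), EPAS1 (60.5%), PDK1 (8.78%) and ENO3 (2.56%). GC correction turned the sign in 22 of the 39 tested members. Of those named by the rule, BNIP3L was 0.36 with GC correction and 0.31 with the block as well, EGLN1 0.061 and 0.091, and EPAS1 -0.038 with GC correction. LDHA was 0.069 with limma on either FPKM scale. ARNT, at -0.0043 as reported, was 0.014 with DESeq2 and RLE factors, 0.054 with GC correction, 0.042 with the block as well, 0.028 without a filter, 0.64 and 0.66 with limma, and -0.25 to 0.13 with 1 library left out. The cause was not tested. Depth limits the 6 members under the filter and ALDOC, PFKP, FBP1, ANKRD37 and SLC2A2.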
